A study of Mus musculus with 6 samples.

Results

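MiR-140 and miR-455 are miRNAs enriched in cartilage, and their mature forms, mmu-miR-140-5p, mmu-miR-140-3p, mmu-miR-455-5p and mmu-miR-455-3p in the files, were chosen by name. All 4 were present among the 1881 mouse miRNAs on the arrays. The arrays compared CD31hiEmcnhi endothelial cells (type H ECs), which line the vessels near the growth plate, with CD31loEmcnlo endothelial cells (type L ECs), with 3 arrays of each. All cells came from wild type C57BL/6 mice aged 1 month, for which no transgene or treatment is given, and the groups are defined by the surface markers used in the sort. The bone was crushed after the epiphysis had been removed, and the cells were stained for CD45 and Ter119. The methods state the exclusion of cells with these markers for the sort of total endothelial cells. The labels also describe culture in endothelial growth medium before RNA was taken. They give the mice as male where the methods give females, and no source used here says whether animals were pooled.

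MiR-140 is processed from an intron of Wwp2, which encodes a ubiquitin ligase, and miR-455 from an intron of Col27a1, which encodes a cartilage collagen. Both are expressed in chondrocytes, whose development SOX9 directs, and mice without miR-140 have short limbs and are prone to osteoarthritis. A hairpin yields a 5p and a 3p strand, and each strand finds its targets mainly through its seed, bases 2 to 8. In RefSeq (GRCm38.p6), Mir140 lies on the forward strand of chr8:107551244-107551313, inside Wwp2 (chr8:107436334-107559290). Mir455 lies at chr4:63256851-63256932, inside Col27a1 (chr4:63214009-63334991).

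The mature strands are shown with the seed in capitals, since the seed sets which mRNAs a strand can bind. The RefSeq table held 3 of the 4, all but miR-140-5p.
miR-140-3p (chr8:107551288-107551308): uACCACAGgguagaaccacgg
miR-455-5p (chr4:63256867-63256888): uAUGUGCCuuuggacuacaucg
miR-455-3p (chr4:63256904-63256924): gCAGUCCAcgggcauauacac
None of these 3 seeds was shared with another of them. In RefSeq, the miR-140-3p seed was also that of miR-497b, and the miR-455-5p seed that of miR-5129-3p. Both of those miRNAs were on the array and neither was detected on any array. No other RefSeq mouse miRNA carried the miR-455-3p seed.

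Each strand was read through 2 probes of different length with 15 spots each, shown here because the results for the strands rest on how well these probes measured. Each is written 5′ to 3′ as DNA.
miR-140-5p, 21 nt probe: ctaccatagggtaaaaccact
miR-140-5p, 20 nt probe: ctaccatagggtaaaaccac
miR-140-3p, 15 nt probe: ccgtggttctaccct
miR-140-3p, 14 nt probe: ccgtggttctaccc
miR-455-5p, 18 nt probe: cgatgtagtccaaaggca
miR-455-5p, 17 nt probe: cgatgtagtccaaaggc
miR-455-3p, 16 nt probe: gtgtatatgcccgtgg
miR-455-3p, 15 nt probe: gtgtatatgcccgtg
The miR-140-3p probes paired with bases 7 to 21 and 8 to 21 of the mature strand and the miR-455-3p probes with bases 6 to 21 and 7 to 21, so most of the seed was not read. The miR-455-5p probes paired with bases 5 to 22 and 6 to 22. The longest run that any of the 8 probe targets shared with another RefSeq mouse miRNA was 9 nt, between the 15 nt miR-140-3p probe and miR-7234-3p. None of the 8 probe sequences was used for another miRNA on the array.

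On these arrays 1 Cy3-labelled RNA was hybridized per array, and the signal of a miRNA is the sum of the totals of its own probes, in intensity units. For comparison, arrays were quantile-normalized and log2 was taken. A detection flag was set for 263 to 281 miRNAs per array in type H and for 295 to 309 in type L ECs, and precision is limited by the number of arrays. Each cell type had a slide and a scan of its own, so the slide cannot be told apart from the cell type. The 10 control features detected on all arrays gave log2 signals that were 0.21 to 1.47 higher with type H than with type L RNA before normalization. What each of these features measures is not given in the sources used here. Of the markers of the labelled cell type, both arms of miR-126a, an endothelial miRNA, were at 0 detected arrays. All 6 haematopoietic markers were also at 0. Of the 8 stromal and mural markers, 7 were detected and miR-10b-5p was at 0.

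MiR-140-5p was higher in type H than in type L ECs, by 1.26-fold after normalization. It was detected on all 6 arrays. Its signal before normalization was 111.8, 89.3 and 89.9 on type H arrays 1 to 3 and 62.2, 66.1 and 70.7 on type L arrays 1 to 3. The lowest type H signal exceeded the highest type L signal. Before normalization the control features were also higher with type H RNA, by a median log2 difference of 0.60, against 0.54 for miR-140-5p. After normalization, 87.8% of the tested miRNAs had no overlap between the groups. The log2 normalized signal was 6.52 ± 0.045 in type H and 6.18 ± 0.068 in type L ECs (SD, n = 3 each), a difference of 0.34 (standard error 0.046, 95% interval 0.22 to 0.45, adjusted p = 0.00082 from limma). The exact two-sided permutation test over arrays returned p = 0.10, which is as low as this design can reach.

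**Figure D1:**
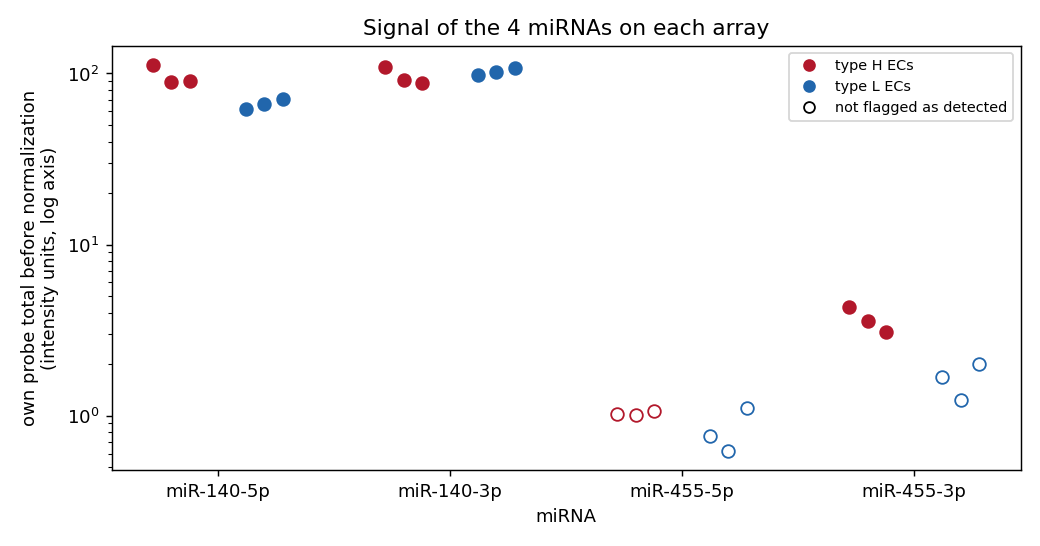
Signal of each miRNA on each array before normalization, as the sum of its own probe totals in intensity units on a log axis, with type H ECs in red and type L ECs in blue, and open points where the miRNA was not flagged as detected. The 3 type H arrays lie above the 3 type L arrays for miR-140-5p and miR-455-3p and overlap with them for miR-140-3p. MiR-455-5p was detected on none. The 10 detected control features were also higher with type H RNA, and the share of miRNAs so ordered before normalization was not counted. MiR-455-3p passed the filter only through the type H arrays, so its order is no support. Points of different miRNAs are read through different probes and their heights are not compared.

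Both miR-140-5p probes gave this order. The 21 nt probe had totals of 75.3, 60.1 and 60.2 in type H and 41.6, 44.3 and 46.1 in type L ECs. The 20 nt probe had 36.5, 29.2 and 29.7 in type H and 20.7, 21.9 and 24.6 in type L ECs. Before normalization, where the control features were also higher with type H RNA, no type L array reached the lowest type H array with either probe. The share of all probes with such an order was not counted. Each total was 9.32 to 9.94 times the error that the scanner software gave it, no spot was saturated, and spots of 1 probe on 1 array varied by a coefficient of variation of 2.72 to 7.94%.

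MiR-140-3p, the other strand of the same hairpin, was 1.16-fold lower in type H ECs after normalization, and whether it counts as different depended on the scaling. It was detected on all 6 arrays. Before normalization its signal was 108.5, 91.9 and 87.5 on type H arrays 1 to 3 and 97.7, 102.2 and 107.4 on type L arrays 1 to 3. These signals overlapped, with type H array 1 above every type L array and the other 2 type H arrays below them. After quantile normalization the log2 signal was 6.49 ± 0.073 in type H and 6.71 ± 0.013 in type L ECs (SD, n = 3 each), with no overlap. The log2 difference was -0.22 (standard error 0.043, 95% interval -0.33 to -0.11, adjusted p = 0.0042 from limma), and the exact two-sided permutation p was 0.10. Without normalization the log2 difference was -0.10 (adjusted p = 0.51 from limma), and from the 14 nt probe alone it was -0.049 after normalization (adjusted p = 0.43 from limma).

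Quantile normalization assigns ranks, so that miR-140-5p received the same value on type H arrays 1 and 2, and spreads within a group are narrower than those of the signals. The scalings also differed in where they place the middle of all miRNAs. Over the 231 miRNAs detected on all 6 arrays, the median log2 difference was 0.11 with quantile normalization, -0.22 when each array was scaled on its 75th percentile and -0.12 when none was applied. Set against these medians, miR-140-5p was higher by 0.23, 0.66 and 0.66 in the same order. MiR-140-3p was lower by -0.32 after quantile normalization and was 0.016 above the median under the other 2. Its direction relative to other miRNAs thus turned with the scaling. In the log2 table that the authors deposited, the median was 0.19. There miR-140-5p was higher than the median by 0.15, and miR-140-3p differed from it by -0.41.

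The arms of miR-140 were then compared, because both are cut from 1 hairpin and a scaling common to the array leaves the ratio of arms unchanged. Quantile normalization is not such a scaling and can change the ratio. Probes of different sequence are not equally bright, so the ratio itself carries no level, and only its change between cell types is read. After quantile normalization the log2 ratio of the 5p to the 3p signal was 0.068, -0.079 and 0.079 on type H arrays 1 to 3. On type L arrays 1 to 3 it was -0.55, -0.60 and -0.44. The ratio was higher on every type H array than on any type L array. The 5p change exceeded the 3p change by 0.55 on the log2 scale (standard error 0.071, 95% interval 0.38 to 0.72), with an exact two-sided permutation p of 0.10, the smallest possible. Without normalization the value was 0.64. Fitted with limma over the 20 hairpins whose arms were both detected on all 6 arrays, a test added after the values were seen, its adjusted p was 0.00037. In that fit 75% of the hairpins passed the threshold, 40% with the 5p arm favoured in type H ECs and 35% with the 3p arm, and 85% of hairpins had no overlap between the groups. By size, miR-140 stood 10th of the 20, so an unequal change of the arms was not particular to miR-140.

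**Figure D2:**
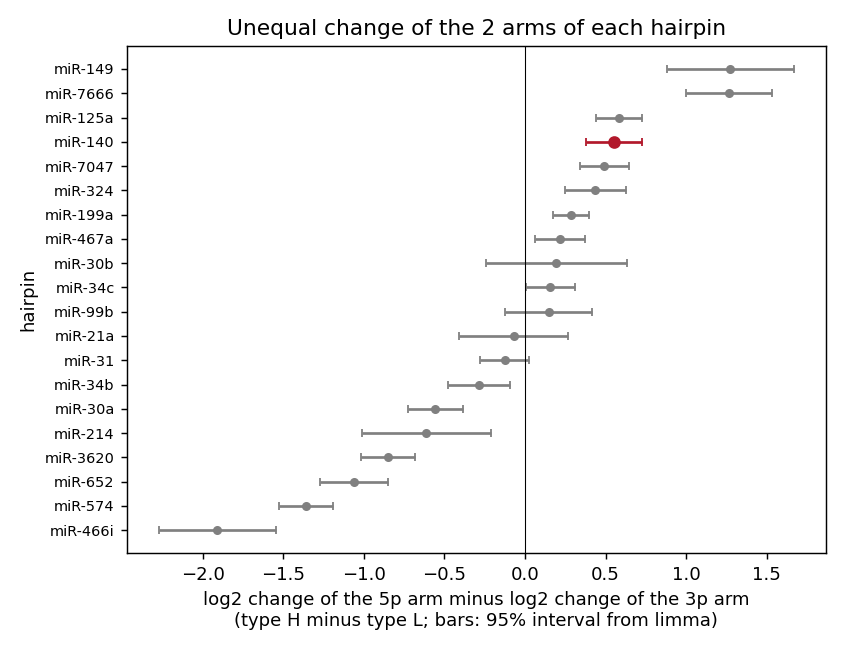
For each of the 20 hairpins with both arms detected on all 6 arrays, the log2 change of the 5p arm minus that of the 3p arm, type H minus type L, with 95% intervals from limma. MiR-140, in red, lies at 0.55 with an interval from 0.38 to 0.72.

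MiR-455-3p carried a detection flag with all 3 type H RNAs and with none of the type L RNAs, at a signal near the detection limit. Its signal before normalization was 4.33, 3.58 and 3.08 on type H arrays 1 to 3 and 1.68, 1.23 and 2.01 on type L arrays 1 to 3. Here too the groups did not overlap before normalization, with type H higher. The log2 normalized signal was 2.11 ± 0.044 in type H and 0.64 ± 0.28 in type L ECs (SD, n = 3 each), the latter from arrays that did not detect it. The log2 difference was 1.46 (adjusted p = 0.00017 from limma), with an exact two-sided permutation p of 0.10. Because the miRNA passed the filter only through the type H arrays, where it was high, neither the order of the groups nor these p-values support the difference. On the quantile-normalized scale a fold was also taken against a raised type L value. On each type L array this was the higher of the miRNA's own signal and the lowest normalized signal of any detected miRNA. Those lowest detected signals were 1.30 to 1.43 in normalized intensity units. The resulting fold was 2.66, near the 2.76 from the undetected type L signals themselves, so it sets no lower limit on the difference. It does not carry over to other scales, since the log2 difference was 1.18 without normalization and 1.08 with scaling on the 75th percentile.

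The detection of miR-455-3p rested on its 16 nt probe. That probe had totals of 3.43, 2.97 and 2.56 in type H and 1.77, 1.47 and 1.72 in type L ECs, with an error of 0.69 to 0.82 on each array. These were 3.54 to 4.17 times their error in type H and 2.14 to 2.24 times in type L ECs. The type H totals were thus just above 3 errors, and the type L totals under it but above 0. Of the 15 spots of this probe, 1 to 5 were well above background on the type H arrays and 0 on the type L arrays. The mean totals before normalization were 2.98 and 1.66, and the means of the log2 totals differed by 0.84. The 15 nt probe had totals of 0.90, 0.61 and 0.52 in type H and -0.097, -0.25 and 0.29 in type L ECs, and none exceeded 1.20 times its error.

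**Figure D3:**
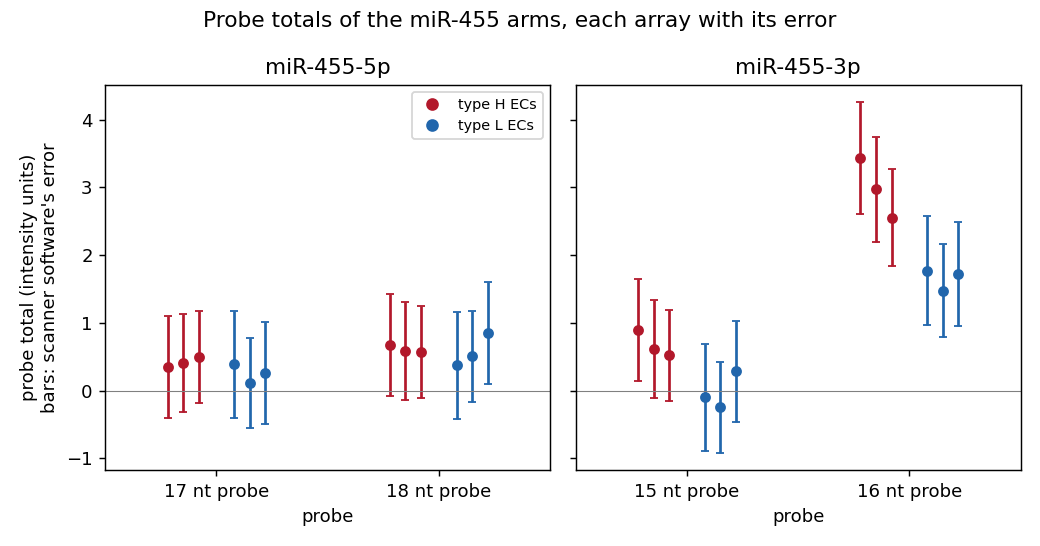
Totals of each probe of miR-455-5p and miR-455-3p on each array, in intensity units, with type H ECs in red, type L ECs in blue and bars for the error given by the scanner software. The 16 nt probe of miR-455-3p is the one probe of the 4 with totals over 3 times their error, at 3.43, 2.97 and 2.56 on the type H arrays.

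The size of the miR-455-3p difference depended on how its signal was taken. The total per miRNA that the authors deposited was 12.1, 11.3 and 8.92 on the type H arrays, of which 71.3 to 73.7% was not from its own probes. This excess equalled the deposited total of miR-425-5p on type H arrays 1 and 3 and that of miR-433-5p on type H array 2. With those totals the log2 difference was 3.66. In the authors' log2 table it was 5.32, where undetected miRNAs on the type L arrays carry a fixed value, and this size says nothing of the level in type L ECs. With normexp background correction, which adds an offset of 50 to every spot, it was 0.12. For miR-140-5p and miR-140-3p the deposited totals equalled their own probes on every array.

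MiR-455-5p was detected on none of the 6 arrays. Its signal was 1.02, 1.00 and 1.07 on the type H arrays and 0.76, 0.62 and 1.11 on the type L arrays. The 2 cell types overlapped, no probe total exceeded 1.13 times its error, and no fold or test is given. A difference in this strand was therefore not detectable here, and the arms of miR-455 could not be compared.

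Of the 311 miRNAs that passed the filter, 86.8% were past the threshold, 44.7% higher and 42.1% lower in type H ECs. After quantile normalization 87.8% had no overlap between the groups, and the share before normalization was not counted. The 3 members that passed were all called, a share near the 86.8% over all tested miRNAs. Ranked from the highest difference to the lowest, miR-455-3p stood 14th, miR-140-5p 107th and miR-140-3p 186th of the 311. The share of calls with the higher signal in type H was 51.5% with quantile normalization, 35.8% with scaling on the 75th percentile and 40.3% with none. In these RNAs from sorted populations, a different share of cells that hold a miRNA and a different amount per cell cannot be told apart.

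**Figure D4:**
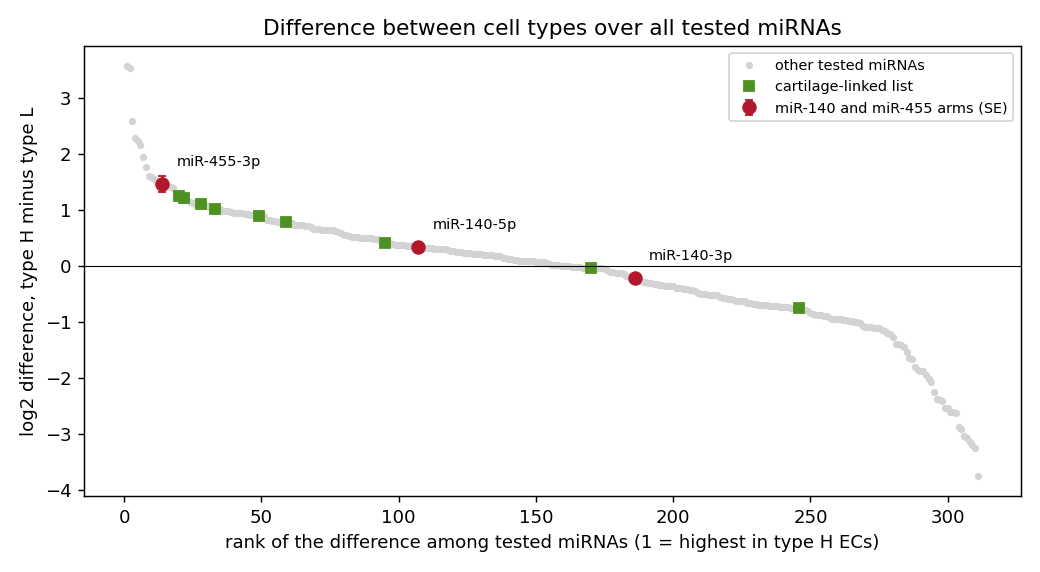
Log2 difference, type H minus type L, of the 311 tested miRNAs ranked from the highest to the lowest in type H ECs, with the arms of miR-140 and miR-455 in red with standard errors and the cartilage-linked list as green squares. MiR-455-3p lies at rank 14 and miR-140-5p at rank 107, and miR-140-3p lies below 0 at rank 186.

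Other miRNAs that have been studied in chondrocytes were taken from a list of 18, all on the array, of which 9 were tested. In type H ECs 7 of the 9 were higher, 1 was lower and 1 was not past the threshold, with a median log2 difference of 0.90 against 0.026 over all tested miRNAs. The 8 of 9 past the threshold are near the 86.8% over all tested miRNAs, of which 44.7% were higher, and miR-145a-5p, 1 of the 7, is also on the stromal and mural list. MiR-145a-5p and miR-181a-5p, both among the 8, passed the filter only through the cell type where they were higher. The highest of those detected on all 6 arrays was miR-365-3p, which is induced in chondrocytes by mechanical load, with log2 signals of 4.72 and 3.46 in type H and type L ECs and a log2 difference of 1.26 (adjusted p = 1.1e-05 from limma). MiR-193b-3p, which is regulated during early chondrogenesis, differed by 1.02 and miR-22-3p, which rises in osteoarthritic cartilage, by 0.90 (adjusted p = 5.1e-06 and 4.6e-06 from limma). MiR-92a-3p, a miRNA of a growth-promoting cluster, had a log2 signal of 6.28 in type H against 5.18 in type L (adjusted p = 5.0e-06 from limma). After quantile normalization these 4 did not overlap between the cell types, and neither did 87.8% of all tested miRNAs. MiR-181a-5p was lower, by -0.76 (adjusted p = 3.4e-05 from limma), and was detected on 1 type H and 3 type L arrays. It passed the filter only through the type L arrays, where it was high, so this p-value does not support the difference. MiR-34a-5p had a log2 difference of -0.035 (adjusted p = 0.37 from limma). The other 9 of the list were detected on no array, among them both arms of miR-675, which is processed from a long noncoding RNA active in cartilage. Of the 6 miRNAs listed as chondrocyte markers, the members included, 3 were thus at 0 detected arrays.

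Of the 7 stromal and mural miRNAs tested, 5 were higher in type H ECs and 2 were not past the threshold, beside 44.7% higher and 86.8% past the threshold over all tested miRNAs. Their median log2 difference was 0.32, against 0.026 over all tested. After quantile normalization miR-140-5p had the same sign as these 5 and miR-140-3p the opposite sign, though the latter's direction relative to other miRNAs turned with the scaling. MiR-455-3p, and miR-145a-5p of the 5, passed the filter only through the type H arrays, so their signs are not compared. The summed signal of those detected before normalization was 876 to 1119 on the type H arrays and 753 to 867 on the type L arrays. Each sum holds only miRNAs flagged on that array, and miR-145a-5p was flagged on 3 type H and 2 type L arrays. The control features were also higher with type H RNA before normalization. MiR-143-3p, of smooth muscle and mural cells, had a log2 signal of 4.75 in type H against 3.65 in type L (adjusted p = 4.6e-06 from limma). MiR-214-3p, of mesenchymal cells, differed by 0.64 (adjusted p = 2.2e-05 from limma). MiR-152-3p differed by 0.32 and miR-199a-5p by 0.31 (adjusted p = 0.00076 and 0.00039 from limma). The part of such cells, and that of the slide, in the differences of the miR-140 and miR-455 arms was not tested.

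The miRNAs most like the miR-140 arms over the 6 arrays were sought among the other 230 detected on all arrays, by the root mean square difference of log2 signal after each was centred on its mean. Nearest to miR-140-5p were miR-199a-5p, at 0.033, miR-30a-5p, at 0.041, and miR-1839-3p, at 0.044. Their log2 differences between cell types were 0.31, 0.35 and 0.28, against 0.34 for miR-140-5p. Closeness of these differences, for either arm, follows from the choice by profile and is no separate result. Nearest to miR-140-3p were miR-8101, at 0.050, miR-5100, at 0.060, and miR-23b-3p, at 0.061, with log2 differences of -0.29, -0.32 and -0.28. With differences of opposite sign, neither arm of miR-140 was among the nearest 3 of the other.

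**Figure D5:**
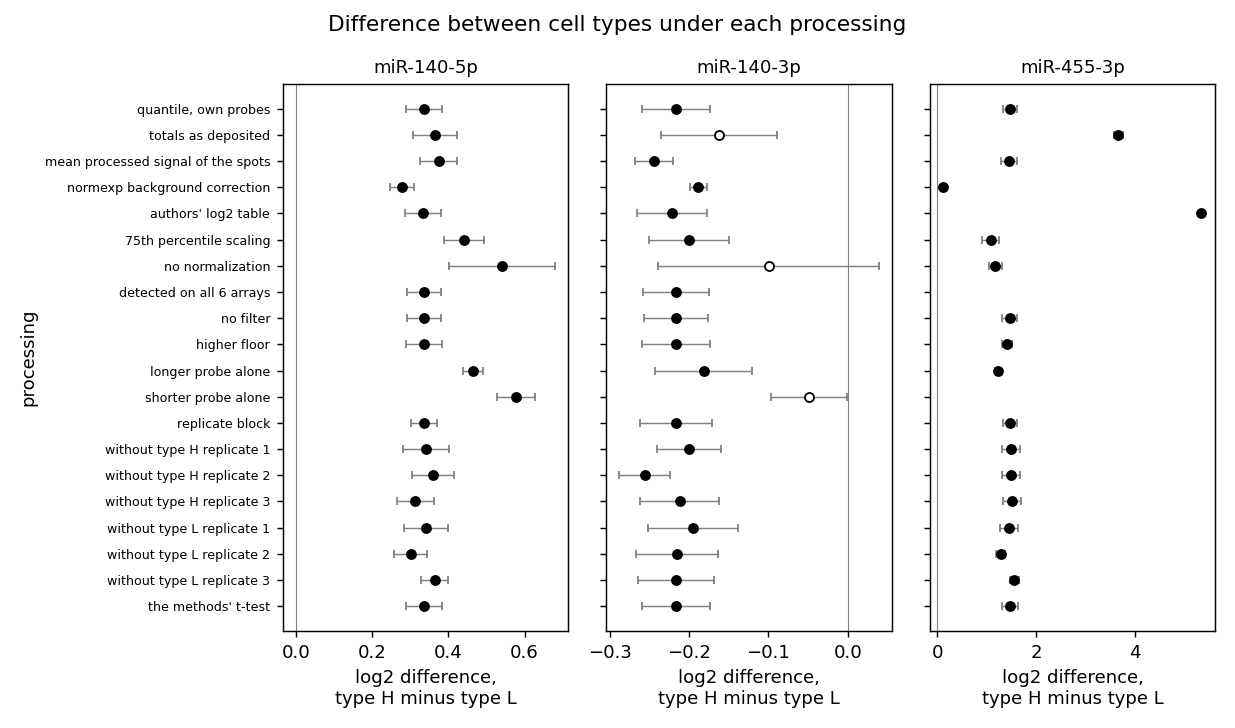
Log2 difference, type H minus type L, of miR-140-5p, miR-140-3p and miR-455-3p under each processing, with standard errors; filled points are past an adjusted p of 0.05 and open points are not, and each panel has its own axis. MiR-140-5p stays between 0.28 and 0.58, miR-140-3p is open with the totals as deposited, without normalization and with its shorter probe, and miR-455-3p spans 0.12 to 5.32.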

How the data were processed

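MiRNAs were measured on 1-colour Agilent arrays, with 3 arrays of type H and 3 of type L ECs. The authors read the scans with Feature Extraction 10.7.1.1, and the deposited intensities are background-subtracted spot signals, probe totals and detection flags, not normalized across arrays. A second deposited file holds log2 values, quantile-normalized per their methods, whose column medians of -3.32 to -3.26 are the value of undetected miRNAs. How that value was set is unknown.

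Probe totals were summed per miRNA and quantile-normalized over 1881 miRNAs, with a floor of 1 before log2. MiRNAs with a detection flag on every array of either cell type, 311 in all, were compared with limma 3.58.1 in R 4.3.3 over 6 arrays, with Benjamini-Hochberg adjustment over all of them and a threshold of 0.05. The script was tested on simulated data. A miRNA counts as detected where a probe exceeds 3 times its error. The statistics section names a two-tailed Student's test for pairs of groups, run as an alternative (the methods' t-test).

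The members and lists were chosen with earlier results of these data known. The text names the 4 members, from each list up to 4 miRNAs past the threshold and detected on all arrays, and the 3 nearest profiles. MiR-145a-5p, miR-181a-5p, miR-34a-5p and the undetected miRNAs were named after their values were seen. Labels and methods differ on the labelling (amplified cRNA or small RNA). The samples are called biological replicates, but the sources do not say whether animals were pooled, so the spread may be partly technical.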

Additional observations from a re-analysis of the deposited data

How the results depend on the processing

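MiR-140-5p stayed higher in type H ECs and past the threshold under all 19 alternatives, with log2 differences of 0.28 to 0.54 across signals, scalings, filters and tests, and 0.46 and 0.58 with the longer and the shorter probe alone, which were added after the data were seen. MiR-140-3p stayed lower under all 19 but missed the threshold from the totals as deposited (-0.16, adjusted p = 0.10 from limma), without normalization (-0.10) and with the shorter probe alone (-0.049). The cause was not tested. MiR-455-3p was higher under all 17 that gave a value, at 0.12 to 5.32, but its type L values were undetected or at a floor and it passed the filter only through type H, so these are no independent support. Its shorter probe alone gave none, since every array was at the floor, and it was not tested among miRNAs detected on all 6 arrays. With each array left out in turn, the log2 differences were 0.30 to 0.36 for miR-140-5p, -0.26 to -0.20 for miR-140-3p and 1.28 to 1.55 for miR-455-3p, the difference between the miR-140 arms was 0.52 to 0.62, the number past the threshold was 261 to 272 and the listed cartilage-linked miRNAs past it stayed at 8. The arm difference was 0.47 to 0.64 under other signals and scalings and 0.65 and 0.63 with the longer and the shorter probes, each with an exact permutation p of 0.10, and 0.55 in the limma fit over hairpins, where it passed. In all, 270 miRNAs were past the threshold, against 413 with no filter, where 1881 were tested and many values lie at the floor, and 6 to 9 cartilage-linked miRNAs under the other settings. The methods' t-test called 266 at 0.05 without adjustment and 264 after it.

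Arrays of the same number did not deviate together (correlations of -0.0055, -0.025 and 0.12 over 231 miRNAs). A fit with the replicate block called 262 miRNAs and changed no call of the members. Slide as a block could not be fitted, and miR-455 arms were not compared. Signals of miR-455 lie near the error of a probe, which limits what can be said of them.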
